A study of Blattella germanica with 8 samples.

Results

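BgILP8 is an insulin-like peptide gene of the German cockroach, Blattella germanica, and it is followed here in the male conglobate gland as 1 of the 30784 rows of a gene count table. The gland is an accessory sex gland that takes part in forming the spermatophore, the packet in which sperm reaches the female. Males of 2 groups were compared. In the dsILP8 group (n = 4 libraries), 2 µg of double-stranded RNA (dsRNA) matching BgILP8 had been injected into the abdomen on day 7 of nymphal instar 6, the last one. In the dsMock group (n = 4 libraries) the same amount of a heterologous dsRNA, from a baculovirus polyhedrin gene, was given at the same age. Glands came from virgin males of a laboratory colony and polyA RNA was sequenced. The labels carry no age at dissection. The study's text puts it at adult day 7, which is used here, but a legend on the same libraries puts it at day 4. The treatment is a knockdown given to the whole animal and not a deletion. Nothing read here says how many glands went into a library or whether libraries are separate animals, so all p-values measure the spread between libraries, which may be technical.

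Insulin-like peptides are secreted ligands that are cut from a longer precursor and bind a receptor tyrosine kinase at the cell surface, the insulin receptor. The receptor starts a chain of phosphorylations that couples growth, metabolism and reproduction to nutrition. Insects carry several such ligands and only a few receptors, and the ligands differ in the tissue in which they are made. Long dsRNA triggers RNA interference, in which short pieces of the injected RNA guide the cleavage of the matching mRNA.

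The table gives identifiers and no gene names, and the row BGER021014-RA was taken as BgILP8 from its values. It was the 1 row of 14444 tested whose mean normalised count over all 8 libraries equalled the one listed for BgILP8 within 0.05 counts. Its fold change equalled the listed one too, so the size of the fold change below is no independent check of which row this is. The number of the gene in the study is also the number of its locus tag, C0J52_14525, in the Bger_1.1 reference table. For the 100 other genes of the study's lists that have a protein accession, the locus tag of the same number carried that accession in all 100. C0J52_14525 spans 2534 bp on scaffold PYGN01001100.1, from 603243 to 605776. It lies within the span of a longer gene, C0J52_14524, which runs from 580626 to 634815, and the next gene, C0J52_14526, starts after a gap of 29977 bp. Exon positions were not used here, and the strand setting of the counting was not stated. Reads of the overlapping gene can therefore not be told apart from those of BgILP8 by position alone, and which row holds C0J52_14524 is not known. No sequence of BgILP8 is shown because no sequence table was used here.

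Library totals lay between 9060546 and 10934576 counts in dsILP8 and between 9328920 and 11461055 counts in dsMock. The dsILP8 replicate 1 library stood apart, with log2 correlations across genes of 0.929 to 0.943 with the other 7, against 0.963 to 0.977 among these 7. That library touches the values of BgILP8 below, which are therefore also given without it. The labelled tissue was not checked against marker genes, since none was fixed for the gland, and the genes named below were matched to a list that the study drew from these libraries.

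BgILP8 was lower in every dsILP8 gland library than in any dsMock library, and it was among the most abundant transcripts in every dsMock library. In dsILP8 replicates 1 to 4 the counts were 627, 815.5, 1178 and 1083.5, or 57.3, 90.01, 113 and 108 CPM (counts scaled to a library total of 1000000). In dsMock replicates 1 to 4 the counts were 20958, 27689, 20401 and 17012, or 1829, 2849, 2106 and 1824 CPM. The groups did not overlap: the lowest dsMock library was 16.2-fold above the highest dsILP8 library. Within dsILP8, replicate 1 was the lowest library, and within dsMock, replicate 2 was the highest. At these depths the counting error was small. For the smallest count, 627, the exact 95% Poisson interval was 579 to 678 counts (52.9 to 62.0 CPM), and this interval covers counting error only. In 6 of the 8 libraries the count was not a whole number, since reads that map to several places were split into fractions.

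**Figure D1:**
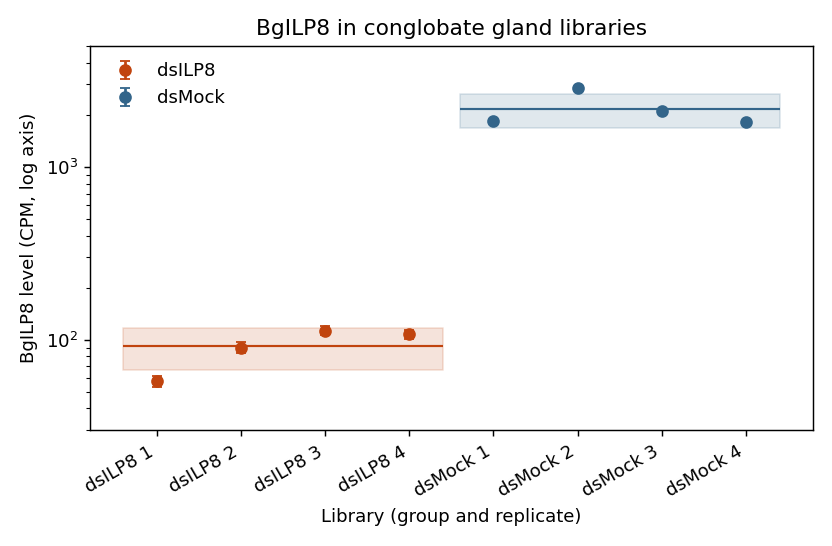
Level of BgILP8 in CPM (log axis) in each of the 4 dsILP8 and 4 dsMock libraries. Points carry exact 95% Poisson intervals (counting error only), lines are group means and bands are ± 1 SD. The dsILP8 libraries sit between 57.3 and 113 CPM and the dsMock libraries between 1824 and 2849 CPM.

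BgILP8 averaged 92.0 ± 25.1 CPM in dsILP8 and 2152 ± 483 CPM in dsMock (SD, n = 4 each), which is 23.4-fold lower (p = 0.0286 in a two-sided exact permutation test over libraries, which with 4 against 4 can go no lower). The level left was 4.27% of the dsMock mean. In another round of the treatment, the study's quantitative PCR, given per actin copy, found a smaller reduction at adult day 7 than these libraries show. The cause of that difference was not tested. At adult day 4, the other age given for these libraries, the study's quantitative PCR found a larger reduction than at day 7. Taken singly, dsILP8 replicates 1 to 4 held 2.66%, 4.18%, 5.25% and 5.00% of the dsMock mean. Replicate 1 held the least, and the other 3 lay closer to each other than to it. In edgeR's quasi-likelihood fit across all 14444 genes the log2 fold change was -4.58 (standard error 0.246, 95% interval -5.13 to -4.03, FDR = 0.000127). On the linear scale this is 4.18% of the dsMock level, with an interval of 2.85% to 6.13%. Without dsILP8 replicate 1 the level left was 4.81% and the log2 fold change -4.40. Without dsMock replicate 2 they were 4.79% and -4.44. In bulk libraries, fewer cells that make a transcript and less of it per cell cannot be told apart.

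The counts left on the BgILP8 row were still well measured, though reads of the overlapping gene cannot be told apart in them. BgILP8 ranked 1259, 819, 648 and 728 among all rows in dsILP8 replicates 1 to 4, against 40, 28, 36 and 43 in dsMock replicates 1 to 4. By group mean it stood at rank 839 in dsILP8 and 34 in dsMock. Its mean in dsILP8 glands was above that of 94.2% of the tested genes, whose median was 3.47 CPM, and its mean in dsMock glands was above 99.8% of them, with a median of 3.25 CPM. These ranks are by read counts and not per transcript length, so they do not order the genes by number of mRNA molecules. The transcript took up 0.00920% ± 0.00251 of all counts in dsILP8 and 0.215% ± 0.0483 in dsMock (SD, n = 4 each). The counts lost, 0.206% of a library, were too few to shift the CPM of other genes by more than that share.

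**Figure D2:**
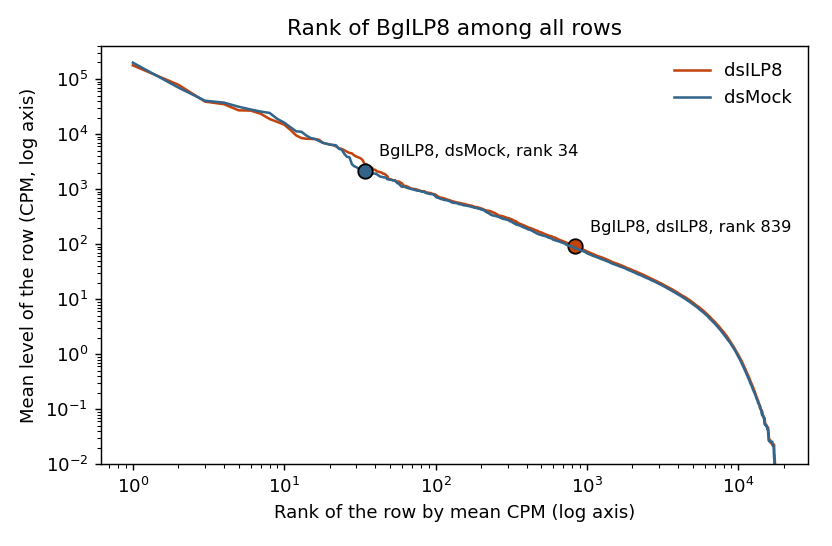
Mean level of every row in CPM against its rank (both log axes) in dsILP8 and dsMock libraries, with BgILP8 marked. BgILP8 stands at rank 839 in dsILP8 and at rank 34 in dsMock, while both curves run close to each other.

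Of the 14444 genes tested, BgILP8 was the 1 called lower in edgeR (FDR under 0.05 and log2 fold change under -1), which is 0.00692% of them. The groups of libraries did not overlap, on CPM over all counts, for 2.33% of the tested genes in either direction, 131 of them lower (0.907%) and 205 higher (1.42%) in dsILP8. With TMM effective library sizes the split was 180 lower (1.25%) and 143 higher (0.99%). DESeq2 called 3 genes lower, BgILP8 among them, which is 0.0212% of those it gave an adjusted p. BgILP8 was not the gene with the lowest fitted fold change. Another 7 genes had log2 fold changes between -8.99 and -4.76, but none passed the test (FDR = 0.998 from edgeR for each). Picked by fold change, 7 of the 7 had an unadjusted edgeR p under 0.05, against 3.93% of all tested genes. In BGER010262-RA, BGER015709-RA, BGER015710-RB and BGER025894-RA, dsMock replicate 2 held 99.3% to 100% of the dsMock CPM. In each of the 7 genes, 1 dsMock library held at least 47.1% of it. For 6 of these 7 the groups overlapped. The 1 that did not overlap, BGER021945-RA, chosen after its values were seen, had 0 counts in every dsILP8 library and 4.5, 7, 3 and 1 in dsMock replicates 1 to 4.

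The rows that adjoin BgILP8 in identifier number were set beside it. None was called, but in edgeR only BgILP8 itself was called over all tested genes (0.00692%). With so few calls, a count of 0 cannot show whether the loss reached beyond BgILP8. Of the 12 rows numbered within 5 of BGER021014, 5 had no count in any library and 7 were tested. In edgeR 0 of these 7 were called and 0 had an unadjusted p under 0.05 (3.93% of all tested genes had one), and the counts were also 0 and 0 with DESeq2 (2.21% of all tested genes at an unadjusted p under 0.05) and with limma-voom (3.2%). The groups separated for 0 of the 7, close to the share of 2.33% over all tested genes, either way. Their log2 fold changes ran from -1.19 to 0.26, 5 lower and 2 higher, with a median of -0.21, against a median of -0.00 over all tested genes. No adjoining row was nearly as abundant: the highest group mean among the 7 was 29.4 CPM. The files do not place the numbers on a scaffold, so a row next in number need not be next to BgILP8 in the genome.

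BGER021013-RA, the row just before BgILP8, held 6.71, 8.74, 13.4 and 15.4 CPM in dsILP8 replicates 1 to 4, and 10.2, 21.7, 13.7 and 12.9 CPM in dsMock replicates 1 to 4. The groups overlapped. The lowest and the highest of the 8 libraries, dsILP8 replicate 1 and dsMock replicate 2, were the same as for BgILP8. Within their groups, 30.03% of all tested genes were lowest in dsILP8 replicate 1 and 35.2% highest in dsMock replicate 2. The match is therefore not read as a link to BgILP8. The log2 fold change of BGER021013-RA was -0.43 (95% interval -1.08 to 0.21, FDR = 0.998 from edgeR), an interval that leaves out the size of the change in BgILP8. It was -0.25 without dsILP8 replicate 1 and -0.21 without dsMock replicate 2. BGER021012-RA, the row before that, held 27.5, 30.6, 30.4 and 29.0 CPM in dsILP8 and 24.0, 34.9, 28.2 and 28.9 CPM in dsMock. Its log2 fold change was -0.02 (95% interval -0.28 to 0.24, FDR = 0.998 from edgeR). On the other side, BGER021015-RA had between 0.65 and 4.43 counts in dsILP8 libraries and between 1 and 3.4 in dsMock libraries, too few to show a change of moderate size (log2 fold change 0.26, 95% interval -1.09 to 1.604). The 3 isoform rows of BGER021016 had no count in any library. The counts of BGER021013-RA were not whole numbers in 8 of 8 libraries and those of BGER021015-RA in 7 of 8, so part of their reads also map elsewhere.

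**Figure D3:**
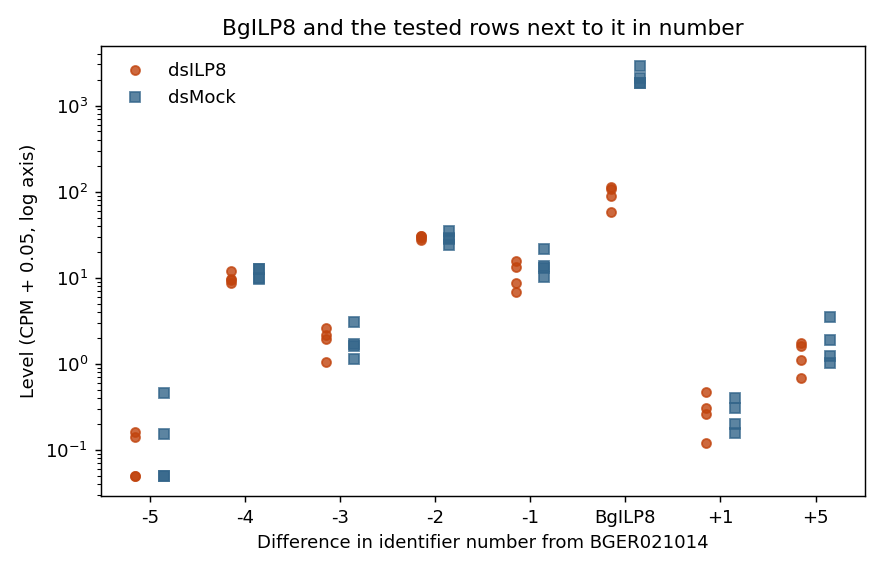
CPM (with 0.05 added, log axis) of BgILP8 and of the 7 tested rows within 5 of it in identifier number, by library, with dsILP8 circles left of dsMock squares. The groups separate for BgILP8 and overlap for the other 7 rows, whose group means are at most 29.4 CPM.

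No other abundant gland transcript passed the test. Besides BgILP8, 68 rows had a mean of at least 1000 CPM in dsMock. In edgeR 0 of them were called and 5 (7.35%) had an unadjusted p under 0.05, against 3.93% of all tested genes. With DESeq2 0 were called and 6 (8.82%) had such a p, against 2.21%. With limma-voom 0 were called and 9 (13.2%) had one, against 3.2%. Such p-values were thus more frequent among the abundant rows than over all genes, and this difference was not tested. Their median log2 fold change was -0.08, their lowest -2.02 and their highest 2.32, against -4.58 for BgILP8. The rows at both ends were named after their values were seen. BGER024482-RA, the lowest, held 8.97, 28.6, 7.31 and 1961 CPM in dsILP8 replicates 1 to 4. Its dsMock libraries held 1044 to 3443 CPM. BGER023991-RA, the highest, held 3955 to 19301 CPM in dsILP8 and 123 to 3738 CPM in dsMock. Neither row passed the test (FDR = 0.998 from edgeR for each). The dsILP8 libraries were all under the dsMock libraries for 0 of the 68, against 0.907% of all tested genes. They were all over them for 2 of the 68, against 1.42%, and counts this small are not read as a result about abundant genes. The 3 rows ranked just above BgILP8 in dsMock, BGER006667-RA, BGER022992-RA and BGER005009-RA, averaged 2271, 2240 and 2463 CPM in dsILP8 and 2362, 2323 and 2241 CPM in dsMock. The 3 just below, BGER024484-RA, BGER021328-RA and BGER016445-RA, averaged 1899, 2025 and 2003 CPM in dsILP8 and 1999, 1969 and 1955 CPM in dsMock. In dsMock the differences between BgILP8 and these 6 neighbours in rank were smaller than the SD of BgILP8, 483 CPM, so their order is not fixed by 4 libraries.

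The most abundant transcripts give the scale of the gland. PSN37808, for which no similar protein is listed, held 169387, 191582, 189605 and 158376 CPM in dsILP8 replicates 1 to 4 and 161428, 191907, 219924 and 220718 CPM in dsMock replicates 1 to 4. Bger_21210, a Bla g 4 isoallergen gene of the lipocalin family, which bind small hydrophobic molecules, averaged 78663 CPM in dsILP8 and 70002 CPM in dsMock. Bger_00081, a serine carboxypeptidase gene, averaged 34881 CPM in dsILP8 and 37327 CPM in dsMock. The rows without a name BGER010768-RA and BGER020452-RA completed the first 5 with 38932 and 27044 CPM in dsILP8 and 40374 and 31392 CPM in dsMock. All 5 had overlapping groups. The mean of BGER020452-RA in dsMock rests on replicate 1, at 55300 CPM. Without that library it was 23422 CPM and the row stood at rank 7. Names were matched by mean count, with 10 carboxypeptidase, 2 isoallergen and 1 further gene found at most 1.03-fold off.

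Within groups, the coefficient of variation (CV) of BgILP8 was 27.3% in dsILP8 and 22.5% in dsMock. Counting error, which is small for any gene with many counts, alone gives 3.36% in dsILP8 and 0.690% in dsMock. On the log2 scale the SD was 0.45 in dsILP8, above that of 91.1% of the 1056 tested genes within a factor of 2 of its level there, whose median was 0.19. In dsMock the SD was 0.30, above that of 62.2% of 37 such genes, with a median of 0.16. Both values rest largely on 1 library each. Without dsILP8 replicate 1 the CV in dsILP8 was 11.6%, and without dsMock replicate 2 the CV in dsMock was 8.42%.

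The libraries in which BgILP8 was lowest or highest were set beside the abundant genes. Of the 68 rows, 35 (51.5%) had their lowest dsILP8 value in replicate 1, against 30.03% of all tested genes. In dsMock 28 (41.2%) had their highest value in replicate 2, against 35.2% of all tested genes. Both held for 16 rows, and 2 of the 68 deviated from their group means with the sign of BgILP8 in all 8 libraries. No share over all tested genes is given for either of these counts, so they are not read as a link to BgILP8. In dsILP8 replicate 1 the 33 rows that rank above BgILP8 took up 49.5% of all counts, against 60.2% to 63.3% in the other dsILP8 libraries and 61.3% to 64.1% in dsMock. The part of this in the low BgILP8 value of that library was not tested. BgILP8 counts per 1000 counts of these 33 rows were 0.116, 0.149, 0.179 and 0.178 in dsILP8 replicates 1 to 4 and 2.91, 4.64, 3.29 and 2.87 in dsMock replicates 1 to 4. On this scale dsILP8 averaged 0.156 ± 0.0297 and dsMock 3.43 ± 0.833 (SD, n = 4 each), so 4.54% was left (p = 0.0286, two-sided exact permutation test).

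Over the 8 libraries, the genes whose within-group pattern was most like that of BgILP8 were 2 serine carboxypeptidases, an order that shifts with the libraries used. Such enzymes trim amino acids off a protein at its carboxyl terminus. Likeness was measured as the root mean square difference, over the 8 libraries, between the log2 CPM of BgILP8 and of a gene after the group mean of each was taken off, which removes the mean knockdown but not differences in its extent between dsILP8 libraries. It was 0.12 for Bger_00080 and 0.12 for Bger_00081, followed by 0.18 for BGER016445-RA, 0.21 for BGER017741-RA and 0.22 for BGER027232-RA, where the median of the 68 rows was 0.33. A gene that did not vary at all would have had 0.33, and 35 of the 68 rows were closer than that. Over the dsMock libraries alone Bger_00081 ranked 5 and Bger_00080 ranked 6, the nearest was the carboxypeptidase Bger_00089, and the 5 nearest shared 1 row with the 5 above. With single libraries left out, the nearest was BGER011072-RA without dsILP8 replicate 2, BGER027232-RA without dsMock replicate 2, and Bger_00080 or Bger_00081 otherwise. Bger_00080 held 16176, 24514, 24788 and 28095 CPM in dsILP8 replicates 1 to 4 and 21996, 31545, 24789 and 24345 CPM in dsMock replicates 1 to 4. As for BgILP8, dsILP8 replicate 1 was the lowest and dsMock replicate 2 the highest library of its group. Since Bger_00080 was picked for its likeness over these libraries, this adds nothing to that likeness. PSN37808 and Bger_21210 were further off, at 0.35 and 0.36. Of the 10 carboxypeptidases, 4 were further from BgILP8 than a gene without variation. The largest value among them was 0.50, for Bger_00082, named after its value was seen. Reads common to several of these 10 genes were divided among them in counting, which leaves the value of each single gene uncertain.

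**Figure D4:**
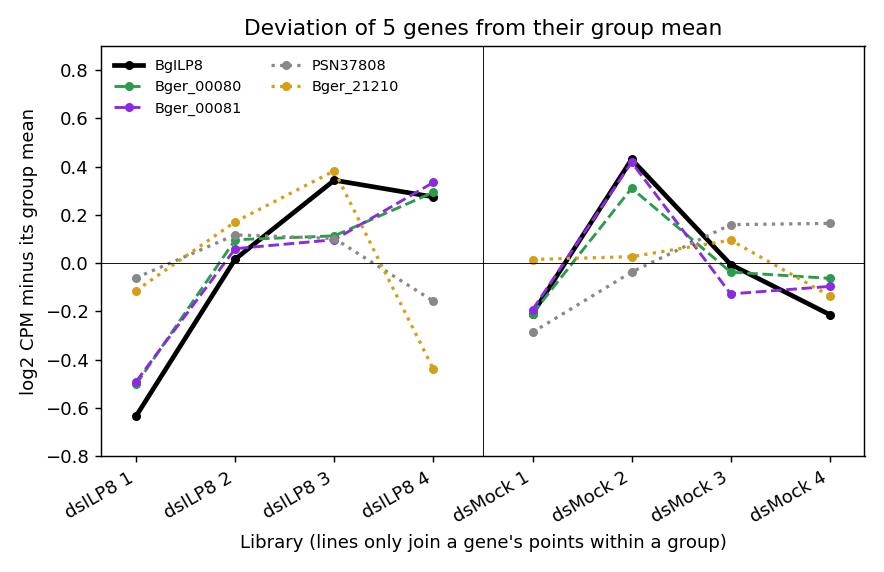
Log2 CPM minus its group mean, by library, for BgILP8, the carboxypeptidase genes Bger_00080 and Bger_00081, PSN37808 and the isoallergen gene Bger_21210, with dsILP8 left of dsMock. BgILP8, Bger_00080 and Bger_00081 are lowest in dsILP8 replicate 1 and highest among dsMock libraries in replicate 2. Both carboxypeptidase genes were picked for their likeness to BgILP8 over these libraries.

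Neither carboxypeptidase passed the test between the groups. Bger_00080 averaged 23393 ± 5079 CPM in dsILP8 and 25669 ± 4105 CPM in dsMock (SD, n = 4 each), a log2 fold change of -0.17 (FDR = 0.998 from edgeR), which was -0.03 without dsILP8 replicate 1 and -0.08 without dsMock replicate 2. The log2 fold change of Bger_00081 was -0.13 (FDR = 0.998 from edgeR) and was 0.0077 without dsILP8 replicate 1 and 0.00072 without dsMock replicate 2. That of PSN37808 was -0.21 (FDR = 0.998 from edgeR).

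Given per carboxypeptidase count in place of CPM, BgILP8 had a lower CV over the 4 libraries of each group. In dsMock this rests on replicate 2, and in dsILP8 the gap narrowed without replicate 1. Without dsMock replicate 2 the CV in dsMock was 10.4% per carboxypeptidase count and 8.42% on the CPM scale. Without dsILP8 replicate 1 the CV in dsILP8 was 8.43% per carboxypeptidase count and 11.6% on the CPM scale. Per 1000 counts of the 10 genes, dsILP8 replicates 1 to 4 held 0.652, 0.735, 0.850 and 0.740 BgILP8 counts, and dsMock replicates 1 to 4 held 16.5, 17.6, 16.9 and 13.9. The CV was 11.0% in dsILP8 and 10.03% in dsMock, against 27.3% and 22.5% on the CPM scale. Per PSN37808 count it was 28.6% and 25.9%, and per count of the 2 isoallergen genes 29.5% and 28.3%. Bger_00080 and Bger_00081, the 2 most like BgILP8, make up 47.7% of the carboxypeptidase CPM in dsMock, so the lower CV restates their likeness and adds nothing to it. The comparison of scales was made after the values were seen. The level left was nearly the same on each scale, at 4.58% per carboxypeptidase count, 4.73% per PSN37808 count and 4.27% per isoallergen count.

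**Figure D5:**
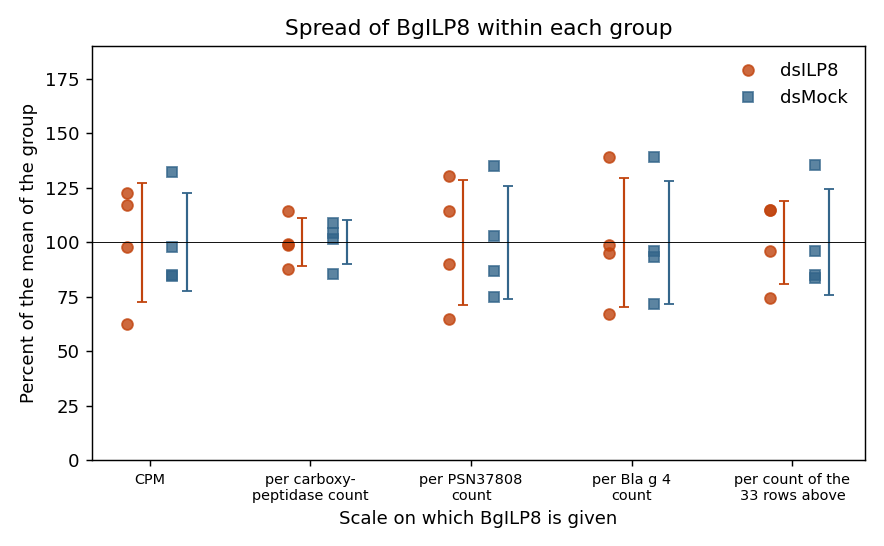
BgILP8 in each library as percent of the mean of its group, given as CPM, per count of the 10 carboxypeptidases, of PSN37808, of the 2 Bla g 4 genes and of the 33 more abundant rows. Bars are ± 1 SD (n = 4), with dsILP8 circles left of dsMock squares. Per carboxypeptidase count the CV is 11.0% in dsILP8 and 10.03% in dsMock.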

How the data were processed

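RNA from 4 dsILP8 and 4 dsMock conglobate gland samples was sequenced as stranded mRNA libraries. Per the labels, Trimmomatic, HISAT2 and featureCounts were used for trimming, mapping and counting. The authors deposited expected counts per transcript identifier, unscaled for depth or length, with multi-mapping reads split into fractions (7.9% to 10.5% of values were not whole). Columns were assigned to samples through the library names. CPM used unrounded counts and library totals. Rounded counts of the 14444 genes at zero in no more than 4 libraries were tested with edgeR 4.0.16 in R 4.3.3 (TMM, quasi-likelihood, Benjamini-Hochberg FDR). A gene was called where the FDR was under 0.05 with a log2 change of more than 1. Standard errors were derived from the F statistic. DESeq2 1.42.0, limma 3.58.1 (voom), other scalings and filters, the replicate number as a block and each library left out were alternatives. Every replicate pair differed beyond sampling noise.

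The gene and the lists were chosen with earlier results of these data known. Named were BgILP8, the 2 nearest identifier numbers on each side, the 5 most abundant rows, 3 rows on either side in rank, and the 5 most like BgILP8 among rows of at least 1000 CPM. Marker, receptor and other ligand genes were not followed, since the table pairs no identifier with a name.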

Additional observations from a re-analysis of the deposited data

Results flagged for a closer look

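Of 46 groups of 4 libraries searched, 4 held a library whose gap to its nearest neighbour was past Dixon's 95% critical value, where chance flags about 1 in 20 groups. None of them was a value of BgILP8 itself. Bger_00081, a gene most like BgILP8 within groups, stood at 49114 CPM in dsMock replicate 2 and at 32157 to 34384 CPM in the other dsMock libraries. BGER027232-RA, also among the 5 most like, stood at 5410 CPM in dsILP8 replicate 1 and at 8760 to 9292 CPM in the other dsILP8 libraries. BGER010768-RA held 36680 CPM in dsMock replicate 1 and 41136 to 41865 CPM in the other dsMock libraries. BGER024484-RA, the row ranked just below BgILP8, held 942 CPM in dsILP8 replicate 2 and 2139 to 2314 CPM in the other dsILP8 libraries.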

How the results depend on the processing

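BgILP8 was called in the main fit and in all 18 alternative fits, with log2 fold changes from -4.72 (without dsILP8 replicate 3) to -4.40 (without dsILP8 replicate 1) and FDR values up to 0.00239. The count of genes called was 1 except with DESeq2 (3), robust dispersion (2) and the replicate block (2), for which the cause was not tested. Under this block the log2 fold change of BgILP8 was -4.61 (FDR = 0.00116). Deviations of same-numbered libraries correlated at -0.023, -0.05, 0.038 and 0.128 for replicates 1 to 4. For dsILP8 replicates 3 and 4 the best-matching dsMock library had the same number. For dsILP8 replicates 1 and 2 it was dsMock replicate 2 and dsMock replicate 1. These replicate numbers are those of the sample labels, and pairing by the numbers in the library names was not tested. With each library left out, the count stayed at 1 and the level left at 3.95% to 4.81%. It was 5.02% from group medians and 3.98% with library sizes that leave out the top 20 genes. The count of adjoining rows called stayed at 0, also with windows of 10 and 20, and their median log2 fold change lay between -0.28 and -0.03 with each library left out. Log2 fold changes then ran from -0.11 to 0.0589 for BGER021012-RA, from -0.0549 to 0.53 for BGER021015-RA, from -0.61 to -0.21 for BGER021013-RA, from -0.25 to -0.03 for Bger_00080 and from -0.23 to 0.0077 for Bger_00081. The likeness of Bger_00080 ranked 6 over the dsMock libraries alone. Leaving out libraries, chosen as an alternative after seeing the data, gave ranks of 1 to 2. The CV of BgILP8 then ran from 11.6% to 33.1% in dsILP8 and from 8.42% to 27.3% in dsMock, and per carboxypeptidase count from 7.00% to 13.4% in dsILP8 and from 3.44% to 12.3% in dsMock, where the lower CV per carboxypeptidase count turns to a higher one without replicate 2. With 4 libraries a group, fold changes of rows with few counts, such as BGER021015-RA, were not detectable unless large.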
